A study of Mus musculus with 24 samples.

Results

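T-cell-rich and T-cell-poor tumours are the 2 ends of a ranking of 24 mouse pancreatic tumour libraries by their content of CD3 transcripts. CD3 is the signalling part of the T cell receptor, made of the chains encoded by Cd3d, Cd3e, Cd3g and Cd247. For each library the raw counts of these 4 genes were summed and divided by all counts of the library. The 8 libraries with the highest share form the T-cell-rich class and the 8 with the lowest share the T-cell-poor class, which leaves 8 in the middle. The libraries were thus chosen by measured CD3 counts. Because the share was measured in the same libraries, the 4 chain genes describe the classes and were left out of every test.

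The libraries are bulk RNA sequencing of tumours removed on day 24 from mice of 4 groups of 6, named LIGEL, IGEL, GEM and PBS (buffered saline, the control). The series title speaks of losartan priming followed by a nanocarrier with chemotherapy and immunotherapy, but the labels do not expand the group names or give strain, age, sex or tumour cell line. The sample titles say muscle where the tissue label says pancreatic tumour. Transcripts of skeletal muscle peaked at 0.0464% in a T-cell-rich library (IGEL replicate 4) and at 0.00479% in a T-cell-poor one. Ductal and tumour epithelium genes took 0.118 to 0.302% and 0.174 to 0.253% in the same order of classes. Nothing in the labels says that the libraries came from separate animals, so p-values measure the spread between these samples, which may be technical in part.

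T cells recognise antigen through the receptor and its CD3 chains, and CD8 or CD4 coreceptors direct them to class I or class II MHC molecules. In pancreatic cancer T cells are typically scarce and meet a tumour rich in fibroblasts, matrix and macrophages. Activated T cells release interferon gamma, which induces antigen presentation genes and the chemokines Cxcl9 and Cxcl10, and these attract further T cells that carry the receptor Cxcr3. In bulk RNA, fewer cells of a type and less RNA per cell cannot be told apart.

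CD3 shares are given in CPM, counts scaled to a library total of 1000000. They ran from 18.5 to 42.7 CPM in the T-cell-rich libraries (median 24.0) and from 5.05 to 10 in the T-cell-poor libraries (median 7.43), with 10.9 to 18 in the middle. The medians differ 3.23-fold and the extremes of the 24 libraries 8.47-fold. IGEL replicate 2 was highest, on 1618 counts (share 42.7, Wilson 95% interval 40.7 to 44.9), and PBS replicate 3 was lowest, on 175 counts (5.05, interval 4.35 to 5.85). Both borders cut through close values. LIGEL replicate 5 was the last library inside the T-cell-rich class with 18.5 (17.1 to 20), and LIGEL replicate 4 stood just outside with 18 (16.7 to 19.4). PBS replicate 2 was the first inside the T-cell-poor class with 10 (9.06 to 11.1), and GEM replicate 3 stood just outside with 10.9 (9.90 to 12.1). Intervals cover counting error only.

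**Figure D1:**
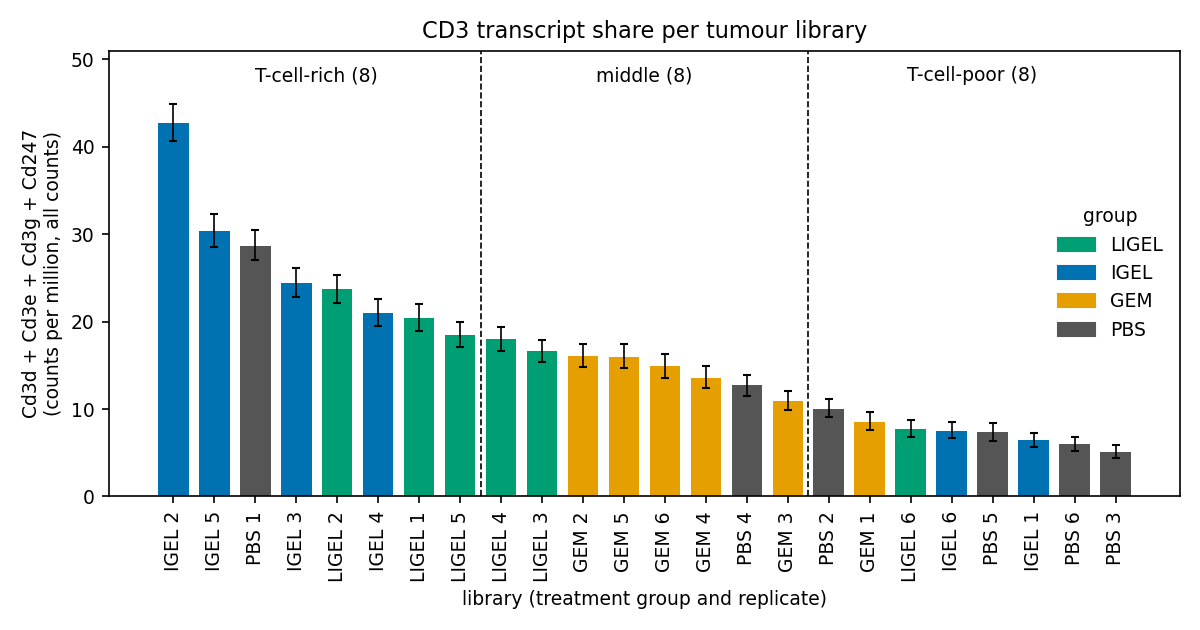
CD3 share (summed raw counts of Cd3d, Cd3e, Cd3g and Cd247 in CPM of all counts) in each of the 24 libraries, in descending order, with Wilson 95% intervals as error bars and treatment groups in colour. Dashed lines mark the borders of the classes, which run through neighbouring values: 18.5 and 18 at the upper border, 10.9 and 10 at the lower.

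Treatment groups were spread unevenly over the classes. The T-cell-rich class held LIGEL replicates 1, 2 and 5, IGEL replicates 2, 3, 4 and 5, no GEM library and PBS replicate 1. The T-cell-poor class held LIGEL replicate 6, IGEL replicates 1 and 6, GEM replicate 1 and PBS replicates 2, 3, 5 and 6. Treatment group was therefore a term of the model, which left 11 residual degrees of freedom. GEM replicate 1 carries no weight in the contrast, since its group has no T-cell-rich library.

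Some libraries stand apart from the rest. PBS replicate 5, in the T-cell-poor class, had 51.7% of its counts on acinar genes, which encode the digestive enzymes of the exocrine pancreas, against at most 1.76% in the other T-cell-poor libraries and 0.0179 to 13.1% in the T-cell-rich ones. With acinar genes left out of the total its CD3 share was 15.2 CPM, which would place it in the middle. PBS replicate 1 is the only T-cell-rich library of its group. The count columns of 6 libraries are numbered A1 to A3, each number standing once with the suffix _1 and once with _2. The others are numbered A7 to A24, all with the suffix _1. LIGEL replicates 1 and 2 of the T-cell-rich class (A3_1 and A3_2) are among the 6. So are IGEL replicate 1 and GEM replicate 1 of the T-cell-poor class (A1_1 and A1_2). The labels do not say what a shared number means, and each column was counted as 1 library. Totals were 33.1 to 37.9 M counts in T-cell-rich and 27.1 to 38.8 M in T-cell-poor libraries.

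The chain genes describe the size of the split. Here and below, CPM of a gene are also scaled by the library's composition factor. Cd3e had 4.74 to 8.96 CPM in T-cell-rich tumours (median 6.09) and 1.19 to 3.17 CPM in T-cell-poor tumours (median 1.65). Cd3g had 5.97 to 18.5 CPM (median 9.61) in T-cell-rich and 1.55 to 7.90 CPM (median 3.17) in T-cell-poor tumours. The fitted log2 fold changes of Cd3e, Cd3d, Cd3g and Cd247 were 2.09, 2.02, 1.78 and 1.39, given without a test.

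Beyond these chains, 41 of 19249 genes tested were higher in T-cell-rich tumours and 0 were lower (edgeR's quasi-likelihood test, adjusted p under 0.05). That is 0.213% of the genes tested. At an unadjusted p under 0.05, 1747 genes were higher and 392 lower. DESeq2 called 450 higher and 38 lower, and limma voom with sample quality weights 2166 and 468. Both tools called all 41. Of the 41, 25 had every T-cell-rich value above every T-cell-poor value, against 57 of all genes tested (0.296%).

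The edgeR count rested on single libraries. It was 0 without PBS replicate 1, and 383 higher and 32 lower without PBS replicate 5 (1.99% and 0.166% of genes tested), among them all 41. It was also 0 without the A1 to A3 libraries and with the replicate number as a block. Both of these settings leave fewer residual degrees of freedom, and 0 calls does not mean folds of 0. Lck, Trac, Trbc1, Bcl11b, Ikzf3 and Pglyrp2 were called in 15 of 16 fits that left out 1 library each, the exception being PBS replicate 1. Other calls were less stable. Of the 41, 1 was called in 2 of these fits, 3 in 3, 8 in 4, 5 in 5 and 4 in 6. Among genes described below, Cxcr3, Cxcl16 and Ccl8 were called in 4 of the 16, Ifngr1 and Selplg in 5 and Pth1r in 6.

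Other T cell genes led the list, as a check of the class name. The T cell list, without the 4 chains, held 14 of the 41 genes among its 39 members tested. Its median log2 fold change was 1.46 (0.01 over all genes tested), and 37 of 39 were higher. Without PBS replicate 1, where 0 genes were called, the median was 1.51 with 37 of 39 higher. Without the A1 to A3 libraries, again with 0 called, it was 1.25 with 35 of 39 higher. Bcl11b (ENSMUSG00000048251, chr12:107910403-108003602), a transcription factor that maintains T cell identity, had 5.76 to 9.66 CPM (median 6.62) in T-cell-rich and 1.23 to 2.17 CPM (median 1.5) in T-cell-poor tumours. It had the lowest p, with a log2 fold change of 2.04 (SE 0.21, edgeR adjusted p = 0.00282). The classes did not overlap, with PBS replicate 3 lowest and IGEL replicate 2 highest.

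The receptor's own constant regions followed. Trac (ENSMUSG00000076928, chr14:54220521-54224206), the alpha chain constant region, had 7.51 to 16.2 CPM (median 10.6) in T-cell-rich and 2.08 to 4.82 CPM (median 3.40) in T-cell-poor tumours, a log2 fold change of 1.68 (SE 0.22, edgeR adjusted p = 0.00645). Trbc1, a beta chain constant region, had a log2 fold change of 1.68 (SE 0.21, adjusted p = 0.00538). Trbc1 and Trbc2 are near-identical copies, so reads may have been split between them. Signalling proteins that act below the receptor also rose: Lck by 1.36 (SE 0.17), Zap70 by 1.70 (0.25) and Themis by 1.71 (0.26), with adjusted p between 0.00538 and 0.0190. None of these overlapped between classes.

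The coreceptors differed in spread. Cd8a (ENSMUSG00000053977, chr6:71373427-71379173), which marks cytotoxic T cells, had 12.9 to 49.6 CPM (median 28.1) in T-cell-rich and 5.96 to 11 CPM (median 9.09) in T-cell-poor tumours. Its log2 fold change was 1.69 (SE 0.25, edgeR adjusted p = 0.0190) and the classes did not overlap. Cd4 (ENSMUSG00000023274, chr6:124864692-124888221), which marks helper T cells and some myeloid cells, had 6.79 to 23.1 CPM (median 12.8) in T-cell-rich and 2.55 to 13.1 CPM (median 4.18) in T-cell-poor tumours. It did not pass, at 1.58 (SE 0.49, adjusted p = 0.225). Of the T-cell-poor libraries, 1 reached into the T-cell-rich range.

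Outside the T cell list, the 12 largest folds among called genes that met a size rule were picked for naming, and several of these genes belong to lymphocytes. Ikzf3, the lymphoid factor Aiolos, had 6.25 to 11.6 CPM (median 7.67) in T-cell-rich and 1.82 to 4.39 CPM (median 2.15) in T-cell-poor tumours (log2 fold change 1.93, SE 0.24, edgeR adjusted p = 0.00538), with no overlap. Tbx21, the T-bet factor of type 1 helper and cytotoxic lymphocytes, was at 1.63 to 3.68 CPM (median 2.60) against 0.656 to 1.42 CPM (median 1.05) in T-cell-poor tumours (1.49, SE 0.26, adjusted p = 0.0386), again with no overlap. The paired receptors Cd96 (1.76, SE 0.25, adjusted p = 0.0122) and Cd226 (1.89, SE 0.32, adjusted p = 0.0386), which share nectin-family ligands, both rose, and Cd226 overlapped by 1 library of each class. Ltb, a lymphotoxin chain that shapes lymphoid tissue, rose by 1.62 (SE 0.26, adjusted p = 0.0271).

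Pglyrp2 (ENSMUSG00000079563, chr17:32413100-32424167), an enzyme that cuts bacterial peptidoglycan, was also called. It had 2.87 to 5.15 CPM (median 3.36) in T-cell-rich and 0.693 to 1.28 CPM (median 0.883) in T-cell-poor tumours (log2 fold change 2.05, SE 0.24, edgeR adjusted p = 0.00538). The classes did not overlap. Tespa1, a protein of T cell receptor signalling in thymocytes, rose by 1.95 (SE 0.35, adjusted p = 0.0468), a call that was lost without the treatment group term (1.63, adjusted p = 0.0645).

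Other named genes had their highest value in the same library. Doc2b, a calcium sensor of vesicle release, had 0.513 to 5.89 CPM (median 0.781) in T-cell-rich and 0.0506 to 1.39 CPM (median 0.314) in T-cell-poor tumours (log2 fold change 2.65, SE 0.46, edgeR adjusted p = 0.0386). Pth1r, the parathyroid hormone receptor, had 2.08 to 20.3 CPM (median 5.28) and 0.834 to 6.48 CPM (median 3.45) in the same order of classes (1.93, SE 0.34, adjusted p = 0.0437). PBS replicate 1 was the highest of all 24 libraries for both, and also for Wisp2, a matricellular protein gene with a log2 fold change of 1.86 (SE 0.34, adjusted p = 0.0478). The classes overlapped for all of these. Without the treatment group term none of them was called, at 1.45 for Doc2b (edgeR adjusted p = 0.605), 1.01 for Pth1r (0.638) and 1.60 for Wisp2 (0.200). Being highest in PBS replicate 1 was not limited to these genes, as it also held for Ltb, Trbc1, Cxcl16, Ccl8, Ifngr1 and Selplg. IGEL replicate 2 was highest for Lck, Trac, Bcl11b, Cd8a, Ikzf3 and Cxcr3.

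**Figure D2:**
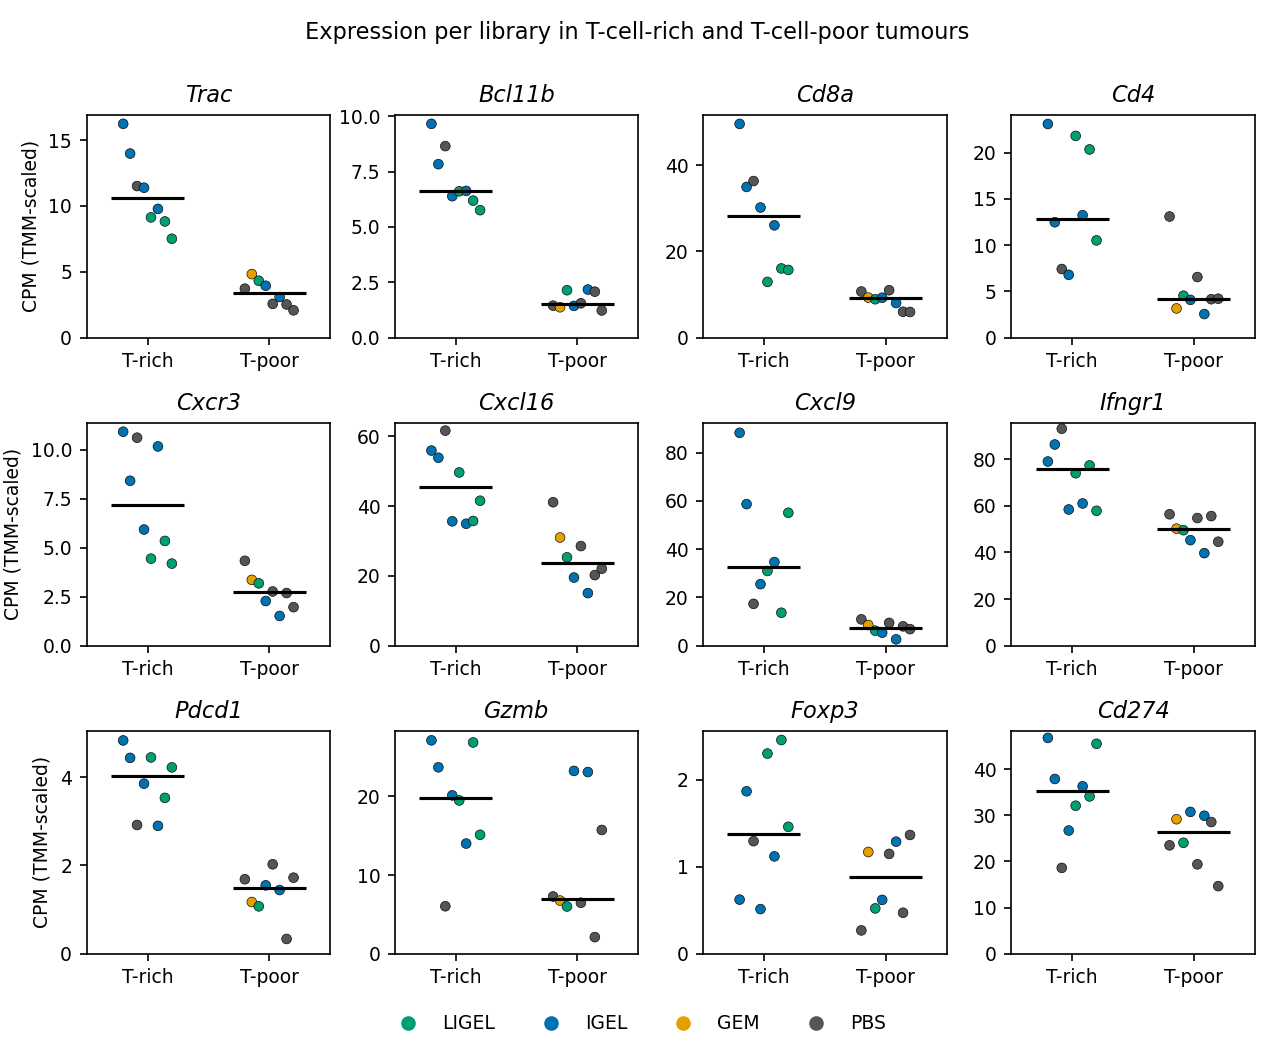
CPM of 12 genes in each T-cell-rich library (left of each panel) and T-cell-poor library (right), with treatment groups in colour and the class median as a bar. Trac, Bcl11b, Cd8a, Cxcl9, Ifngr1 and Pdcd1 do not overlap between the classes, whereas Gzmb, Foxp3 and Cd274 do.

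Chemokines and their receptors came next. The T cell chemokine and receptor list had 17 of 17 members tested higher, with a median log2 fold change of 0.86, and 2 were called. Cxcr3 had 4.19 to 10.9 CPM (median 7.18) in T-cell-rich and 1.52 to 4.33 CPM (median 2.73) in T-cell-poor tumours (1.62, SE 0.30, edgeR adjusted p = 0.0477). Cxcl16, the ligand of the receptor Cxcr6, had 35.0 to 61.7 CPM (median 45.6) in T-cell-rich and 15.1 to 41.1 CPM (median 23.7) in T-cell-poor tumours (1.14, SE 0.21, adjusted p = 0.0468). Both overlapped between the classes, and Cxcl16 was at 0.86 (adjusted p = 0.0604) without the treatment group term.

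Cxcl9 (ENSMUSG00000029417, chr5:92321347-92328079) showed the largest fold among the chemokines described without passing the test. It had 13.7 to 88.2 CPM (median 32.8) in T-cell-rich and 2.63 to 10.9 CPM (median 7.43) in T-cell-poor tumours, a log2 fold change of 2.69 (SE 0.56, edgeR adjusted p = 0.0712). The classes did not overlap. Ccl8, a CC chemokine, was called at 1.74 (SE 0.32, adjusted p = 0.0478), although its ranges of 9.50 to 34.7 CPM in T-cell-rich and 3.64 to 18.6 CPM in T-cell-poor tumours overlapped and it was at 1.07 (adjusted p = 0.356) without the treatment group term.

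Effector and checkpoint genes were mixed. Of 24 cytotoxic and NK genes tested, 19 were higher and 1 (Tbx21) was called, at a median log2 fold change of 1.15. Ccl5, a chemokine of effector lymphocytes, had 8.65 to 30.1 CPM in T-cell-rich and 3.54 to 7.76 CPM in T-cell-poor tumours without overlap (1.58, SE 0.31, edgeR adjusted p = 0.0536). Nkg7, a granule protein, had an adjusted p = 0.0512 at 1.31 (SE 0.25). Gzmb, granzyme B, the enzyme that kills target cells, had 6.03 to 27.1 CPM (median 19.8) in T-cell-rich and 2.11 to 23.2 CPM (median 7.02) in T-cell-poor tumours. Its fitted log2 fold change was 0.20 (SE 0.45, adjusted p = 0.915). IGEL replicates 1 and 6 were the high T-cell-poor libraries for Gzmb, and PBS replicate 1 the low T-cell-rich one.

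Of 14 checkpoint receptor genes tested, 12 were higher and 1 was called, at a median log2 fold change of 0.81. Pdcd1, the checkpoint receptor PD-1, had 2.89 to 4.83 CPM (median 4.04) in T-cell-rich and 0.333 to 2.03 CPM (median 1.49) in T-cell-poor tumours. The classes did not overlap, yet the test was not passed (log2 fold change 1.44, SE 0.37, edgeR adjusted p = 0.153). Lag3, another checkpoint receptor, stood likewise apart at 4.79 to 12.7 CPM in T-cell-rich and 0.665 to 3.37 CPM in T-cell-poor tumours (1.51, SE 0.38, adjusted p = 0.151). Cd274, the PD-1 ligand PD-L1, had 18.6 to 46.8 CPM (median 35.2) in T-cell-rich and 14.6 to 30.7 CPM (median 26.3) in T-cell-poor tumours (0.24, SE 0.20, adjusted p = 0.713). Foxp3, the factor of regulatory T cells, had 0.513 to 2.46 CPM in T-cell-rich and 0.268 to 1.37 CPM in T-cell-poor tumours (0.67, SE 0.49, adjusted p = 0.673). Among 15 regulatory T cell genes 11 were higher, none was called, and the median was 0.31.

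The whole range of the CD3 share was then used as a slope over all 24 libraries, the log2 change in expression per doubling of the share. It shares the 16 class libraries and does not stand as independent evidence. It called 1241 genes higher with more CD3 (6.45% of genes tested) and 176 lower (0.914%), all 41 of the class contrast among them. The count was 422 higher and 23 lower without PBS replicate 1, 515 and 24 without IGEL replicate 1, and 3154 and 1836 without PBS replicate 5 (16.4% and 9.54% of genes tested). It was 375 and 6 without the A1 to A3 libraries. Of the genes called higher, 309 were called in each of the 24 fits that left out 1 library, and 8 of those called lower.

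Of the T cell list 26 of 39 genes had a called positive slope, and 24 of them in every fit leaving out 1 library. The median slope was 0.73, and 0.01 over all genes tested. Of the cytotoxic and NK genes 11 of 24 were called, and 7 in every such fit. Cxcr6, a receptor of tissue-resident T cells, had a slope of 1 (SE 0.11, edgeR adjusted p = 1.12e-05). Checkpoint receptor genes had 4 of 14 called, and 3 in every fit leaving out 1 library. Pdcd1 was called here at 0.69 (SE 0.16, adjusted p = 0.00921) and Lag3 at 0.83 (SE 0.14, adjusted p = 0.00115). Gzmb at 0.10 (SE 0.19, adjusted p = 0.814), Foxp3 at 0.15 (SE 0.21, adjusted p = 0.727) and Cd274 at 0.11 (SE 0.08, adjusted p = 0.501) were not.

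Interferon gamma response genes were higher with more CD3 in 27 of 28 cases, with 13 called and a median slope of 0.47. Of the 13, 3 were called in every fit leaving out 1 library, and with the acinar share as a covariate 4 of the 28 were called. Ifngr1 (ENSMUSG00000020009, chr10:19591949-19610229), a chain of the interferon gamma receptor, was also called between the classes. It had 57.9 to 93.1 CPM (median 75.6) in T-cell-rich and 39.7 to 56.4 CPM (median 49.9) in T-cell-poor tumours with no overlap (log2 fold change 0.70, SE 0.12, edgeR adjusted p = 0.0463). Irf1, a transcription factor switched on by interferon gamma, had 64.7 to 108 CPM in T-cell-rich and 48.0 to 65.0 CPM in T-cell-poor tumours. Its slope was 0.24 (SE 0.06, adjusted p = 0.0120). The adhesion molecule gene Icam1 had a slope of 0.77 (SE 0.14, adjusted p = 0.00183) and the GTPase gene Gbp5 one of 0.77 (SE 0.21, adjusted p = 0.0238). The transcript of interferon gamma itself fell below the expression filter.

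Some promoters of such induced genes hold matches to the sequences that interferon-activated factors bind. Irf1, Icam1 and Gbp5 are shown as examples whose slopes were called and whose promoters each hold a match. In the list 13 genes had called slopes, and the other promoters are not shown. Each stretch runs from 250 bases before to 50 bases after the gene start on the plus strand (RefSeq, GRCm38.p6). Capitals mark matches on either strand to TTCNNNGAA, the gamma-activated site, or to GAAA, any 2 bases and GAAA, the core of the interferon-stimulated response element. The stretches are chr11:53769764-53770063, chr9:21015690-21015989 and chr3:142496684-142496983.
Irf1: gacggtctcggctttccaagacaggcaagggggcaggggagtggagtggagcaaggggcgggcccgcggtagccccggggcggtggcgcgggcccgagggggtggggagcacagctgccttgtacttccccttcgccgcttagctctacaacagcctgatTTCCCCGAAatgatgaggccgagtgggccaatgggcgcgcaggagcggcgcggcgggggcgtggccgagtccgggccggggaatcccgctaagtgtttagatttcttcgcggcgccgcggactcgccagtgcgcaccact
Icam1: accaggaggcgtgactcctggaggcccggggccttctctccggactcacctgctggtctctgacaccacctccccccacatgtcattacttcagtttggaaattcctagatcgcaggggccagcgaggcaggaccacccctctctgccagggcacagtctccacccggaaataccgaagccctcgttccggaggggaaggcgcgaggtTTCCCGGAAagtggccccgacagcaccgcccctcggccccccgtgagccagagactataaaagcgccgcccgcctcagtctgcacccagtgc
Gbp5: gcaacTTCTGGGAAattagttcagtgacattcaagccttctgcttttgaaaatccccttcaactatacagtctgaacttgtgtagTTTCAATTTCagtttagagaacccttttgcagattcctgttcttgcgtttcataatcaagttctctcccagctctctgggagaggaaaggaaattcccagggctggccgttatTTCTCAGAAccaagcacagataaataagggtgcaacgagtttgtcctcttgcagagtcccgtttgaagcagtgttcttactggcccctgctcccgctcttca
Irf1 and Icam1 hold 1 gamma-activated site match each. Gbp5 holds 2 such matches and 1 match to the response element, which reads on the other strand.

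The share of promoters with such a match was counted per gene set. Of the 17 promoters found for that list, 47.1% hold the gamma-activated site and 64.7% the response element, against 6.98% and 3.20% of the 12591 promoters matched for all genes tested. Of the 873 matched among genes with a called positive slope, 8.59% and 5.50% hold them. Of the 124 among genes with a called negative slope, 8.06% and 2.42% do. These shares are descriptions and a match is not a bound site.

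Antigen presentation genes of MHC class II and class I had called slopes, and both counts depended on single libraries. Of 18 class II genes 9 had a called positive slope (median 0.58), among them Cd74, the invariant chain, at 0.89 (SE 0.19, edgeR adjusted p = 0.00496). Without the A1 to A3 libraries 1 of the 18 was called. The count was 2 without IGEL replicate 1, and 2 were called in every fit leaving out 1 library. Of 21 class I genes 4 were called, at a median slope of 0.16, but 0 without the A1 to A3 libraries and 0 without IGEL replicate 1. Type I interferon genes, which answer viruses and nucleic acids, had all 30 slopes above 0 with a median of 0.37, and edgeR called 0 of them. Without PBS replicate 5 it called 6 of the 30, and with the CD3 share of the non-acinar total 9 of the 30. Over all genes tested these fits called 16.4% and 2867 of 19249 higher. With the acinar share as a covariate the median fell to 0.08, with 24 of 30 above 0, and without libraries over 5% acinar it was 0.12. The difference between these lists was not tested.

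Myeloid and other immune lists were mixed. Macrophage genes had 11 of 27 called positive slopes (median 0.46), 8 of them in every fit leaving out 1 library. Without the A1 to A3 libraries 4 of the 27 were called. Adgre1, the F4/80 antigen of macrophages, had 36.2 to 137 CPM in T-cell-rich and 12.4 to 75.7 CPM in T-cell-poor tumours, and a slope of 0.72 (SE 0.11, edgeR adjusted p = 0.000357). Ptprc, the common leukocyte antigen CD45, had 101 to 187 CPM in T-cell-rich and 39.2 to 93.5 CPM in T-cell-poor tumours with no overlap, and a slope of 0.57 (SE 0.08, adjusted p = 0.000185). Selplg, the selectin ligand that leukocytes use to enter tissue, was called between the classes at a log2 fold change of 1.14 (SE 0.20, adjusted p = 0.0396), with 28.1 to 53.4 CPM in T-cell-rich and 10.8 to 28.8 CPM in T-cell-poor tumours. Neutrophil genes had 0 of 23 called in either direction, with a median slope of 0.02.

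Dendritic cell genes had 5 of 20 called positive slopes (median 0.35), 1 of them in every fit leaving out 1 library. Xcr1, a chemokine receptor of cross-presenting dendritic cells, had 0.542 to 3.93 CPM (median 2.18) in T-cell-rich and 0.101 to 1.64 CPM (median 0.670) in T-cell-poor tumours, and a slope of 0.95 (SE 0.23, edgeR adjusted p = 0.0139). Wdfy4, needed for cross-presentation in mouse dendritic cells, had a slope of 0.51 (SE 0.11, adjusted p = 0.00767). Both genes overlapped between the classes. Of 18 checkpoint and costimulatory ligand genes 4 had a called positive slope, among them Cd86, which binds CD28 on T cells, at 0.50 (SE 0.10, adjusted p = 0.00345). In every fit leaving out 1 library 2 of the 18 were called, and without the A1 to A3 libraries 1 was. With the acinar share as a covariate 2 were called and their median slope was 0.10, against 0.29 without it.

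The regulatory T cell list had 4 of 15 called positive slopes, although Foxp3 was not one of them, and 1 in every fit leaving out 1 library. Itgae, the integrin CD103 that is also found on tissue-resident CD8 T cells and dendritic cells, had 4.48 to 13.4 CPM (median 7.78) in T-cell-rich and 1.82 to 5.76 CPM (median 3.08) in T-cell-poor tumours, with a slope of 0.85 (SE 0.11, edgeR adjusted p = 6.13e-05). Ccr8, a chemokine receptor of tumour regulatory T cells, stayed under 1 CPM in every library of both classes, and its slope was 1.46 (SE 0.39, adjusted p = 0.0245).

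B and plasma cell genes had 24 of 25 slopes above 0, a median of 0.76 and 5 called. The 5 became 2 without PBS replicate 1 or without IGEL replicate 1 and 0 without the A1 to A3 libraries, and 1 was called in every fit leaving out 1 library. The summed B and plasma cell share ran from 0.0506 to 0.0923% of counts in T-cell-rich and from 0.0401 to 0.0538% in T-cell-poor libraries. The lymph node markers Cr2 and Fcer2a had at most 28 and 6 raw counts in a T-cell-rich library and at most 8 and 5 in a T-cell-poor one. Other lymphoid structure genes reached more. Ccl21a, a lymph node chemokine listed at 0 in 16 of the 24 libraries, had up to 549 counts in a T-cell-rich and up to 100 in a T-cell-poor library, and the follicle chemokine Cxcl13 up to 134 and 51 in the same order. The B cell factor Pax5 had 18 to 196 counts in T-cell-rich and 4 to 344 in T-cell-poor libraries. With the B cell share as a covariate, 0 genes were called between the classes.

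Stromal genes had positive slopes too. Collagen and matrix genes had 18 of 32 called (median slope 0.48), and fibroblast and myofibroblast genes 15 of 27 (median 0.56). Only 4 and 3 of these were called in every fit leaving out 1 library, and the same numbers, 4 of 32 and 3 of 27, without PBS replicate 1. Col1a1, the main chain of fibrillar collagen, had 2670 to 16900 CPM (median 5350) in T-cell-rich and 1560 to 9390 CPM (median 3430) in T-cell-poor tumours, and a slope of 0.75 (SE 0.15, edgeR adjusted p = 0.00429). Postn, a matricellular protein of activated fibroblasts, had 32 to 404 CPM (median 86.1) and 22.7 to 117 CPM (median 52.7) in the same order of classes, with a slope of 0.75 (SE 0.14, adjusted p = 0.00271). PBS replicate 1 was the highest library for both, and the classes overlapped. Between the classes, edgeR called none of these stromal genes.

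The TGF-beta list, whose ligands drive fibroblasts and restrain T cells, had 9 of 23 called positive slopes (median 0.26), 3 of them in every fit leaving out 1 library. Tgfb2, a ligand, had 2.52 to 31.1 CPM (median 6.32) in T-cell-rich and 1.85 to 12.6 CPM (median 2.95) in T-cell-poor tumours, and a slope of 0.87 (SE 0.17, edgeR adjusted p = 0.00345). Tgfbr2, a receptor, had a slope of 0.39 (SE 0.08, adjusted p = 0.00429). PBS replicate 1 was the highest library for both. Endothelial genes had 3 of 23 called, among them Vcam1, an adhesion molecule that binds lymphocytes, at 0.47 (SE 0.11, adjusted p = 0.0114). None of the 23 was called without the A1 to A3 libraries or without IGEL replicate 1, and the median slope of 0.24 became 0.07 with the acinar share as a covariate.

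Proliferation, ductal and tumour epithelium, acinar, islet, adipocyte and skeletal muscle genes had 0 called in edgeR in either direction. Acinar genes nonetheless had 35 of 35 slopes above 0, at a median of 1.35 over 24 libraries and 2.80 in the 8 middle ones, fitted without a group term. The median was 0.37 without IGEL replicate 1 and 0.23 without the A1 to A3 libraries. Without PBS replicate 5, the slope called 5 of 22 ductal, 4 of 9 adipocyte and 1 of 35 acinar genes higher. That fit called 16.4% of all genes tested higher. With the CD3 share of the non-acinar total 12 of 35 acinar, 7 of 22 ductal and 2 of 9 adipocyte genes were higher. Over all genes tested that setting called 2867 of 19249 higher.

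**Figure D3:**
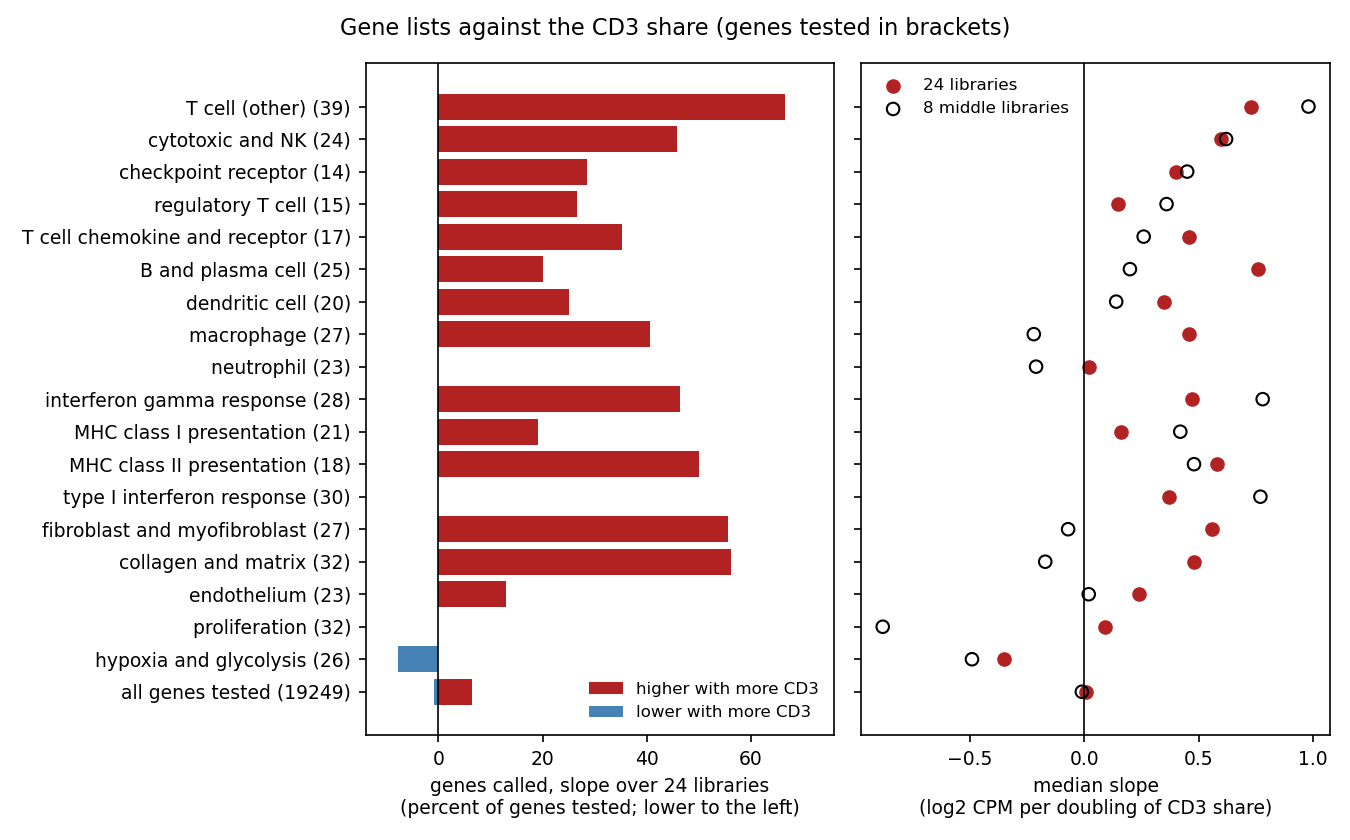
Left, the percentage of each list's tested genes with a called positive slope on the CD3 share over 24 libraries (red) or a called negative slope (blue, drawn to the left of 0). Right, the median slope over 24 libraries with treatment group as a term (filled) and over the 8 middle libraries alone without that term (open). T cell genes lie at 0.73 and 0.98, and collagen genes at 0.48 and -0.17.

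The 8 middle libraries took no part in the class contrast and give the only values from libraries that did not set the classes. They are LIGEL replicates 3 and 4, GEM replicates 2 to 6 and PBS replicate 4, and span CD3 shares of 10.9 to 18. A slope without a group term called 0 genes in edgeR, with 123 higher and 173 lower at an unadjusted p under 0.05. By direction, 35 of the 41 genes had a positive slope there, against 49.0% of all genes tested. T cell genes were positive in 34 of 39 cases (median slope 0.98) and interferon gamma genes in 23 of 28 (median 0.78). Fibroblast genes were positive in 11 of 27 (median -0.07), collagen and matrix genes in 9 of 32 (median -0.17) and macrophage genes in 6 of 27 (median -0.22). Proliferation genes were negative in 32 of 32 (median -0.88). Their median over 24 libraries was 0.09, but that slope had treatment group as a term, so these are unlike estimates. LIGEL replicates 4 and 3 had the highest shares of the middle libraries, 18 and 16.6. Share and treatment group can therefore not be fully separated there.

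Genes lower with more CD3 were fewer. Hypoxia and glycolysis genes had 26 of 26 negative slopes (median -0.35), but 2 were called, and 0 without PBS replicate 1. With the acinar share as a covariate the median was -0.10, with 20 of 26 below 0 and 0 called. Ndrg1, induced by low oxygen, had 63.6 to 402 CPM (median 109) in T-cell-rich and 63.2 to 583 CPM (median 208) in T-cell-poor tumours, and a slope of -0.73 (SE 0.21, edgeR adjusted p = 0.0398). Ero1l, an oxidase of the endoplasmic reticulum, had a slope of -0.53 (SE 0.15, adjusted p = 0.0327). Both ranges overlapped between the classes. The A1 to A3 libraries lie in both classes, and without them 0 hypoxia genes were called. Without PBS replicate 5 17 of 26 were called lower, against 9.54% of all genes tested.

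The genes Phgdh, Psat1, Psph and Slc7a1 were among the 176 lower genes. They were chosen for mention after their values were seen, and no list of such genes was counted. Phgdh, the first enzyme of serine synthesis, had 142 to 212 CPM (median 172) in T-cell-rich and 183 to 380 CPM (median 269) in T-cell-poor tumours, with a slope of -0.34 (SE 0.07, edgeR adjusted p = 0.00491). Psat1 and Psph, the enzymes of the following steps, had slopes of -0.42 (SE 0.09, adjusted p = 0.00746) and -0.36 (SE 0.09, adjusted p = 0.0162). The arginine and lysine transporter gene Slc7a1 had a slope of -0.28 (SE 0.06, adjusted p = 0.00748). Each of these overlapped between the classes. Phgdh and Slc7a1 were called in 23 and Psat1 and Psph in 22 of the 24 fits that left out 1 library.

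The lower genes were unevenly placed in the genome, another pattern seen only after the values were known. Chromosome 3 held 47 of the 176, or 26.7%, and 5.21% of the genes tested. The part was smaller in the fit without PBS replicate 5, which placed 248 of its 1836 lower genes there. By number chromosome 11 came next with 25, or 14.2%, and 7.83% of the genes tested. As a percentage of a chromosome's own genes tested, chromosome 3 stood at 4.69%, chromosome 18 at 1.93% and chromosome 11 at 1.66%. Chromosome 3 also held 47 genes with a called positive slope. Of the lower genes, 20 lay among the 311 tested at 80 to 100 Mb and 16 among the 178 tested at 100 to 120 Mb, intervals that held 12 and 11 genes called higher. Phgdh (chr3:98313170-98339990) and Hax1 (chr3:89995446-89998780), a mitochondrial survival factor gene, are among them. Hax1 had 52.3 to 81.8 CPM in T-cell-rich and 70.4 to 112 CPM in T-cell-poor tumours, with a slope of -0.28 (SE 0.05, edgeR adjusted p = 0.00164) called in every fit leaving out 1 library.

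The level of chromosome 3 was also followed per library. The median of its 501 genes above 10 CPM, relative to the library's own median over 10093 genes on the log2 scale, was -0.127 to 0.033 in T-cell-rich libraries and -0.155 to 0.187 in T-cell-poor ones. In 6 of the 8 T-cell-poor libraries it was 0.046 to 0.187, above every T-cell-rich value. PBS replicates 2 and 5 were at -0.057 and -0.155, and the middle libraries ran from -0.155 to 0.109. The median slope over the 1003 tested genes of the chromosome was -0.084, and -0.078 without the A1 to A3 libraries, where 2 genes there were called lower. In the 8 middle libraries, fitted without a group term, it was -0.091. Chromosome 15 varied nearly as much between libraries. Without PBS replicate 5 its level spanned 0.340, against 0.342 for chromosome 3. Its class medians were -0.008 in T-cell-rich and -0.001 in T-cell-poor libraries, against -0.028 and 0.095 for chromosome 3.

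**Figure D4:**
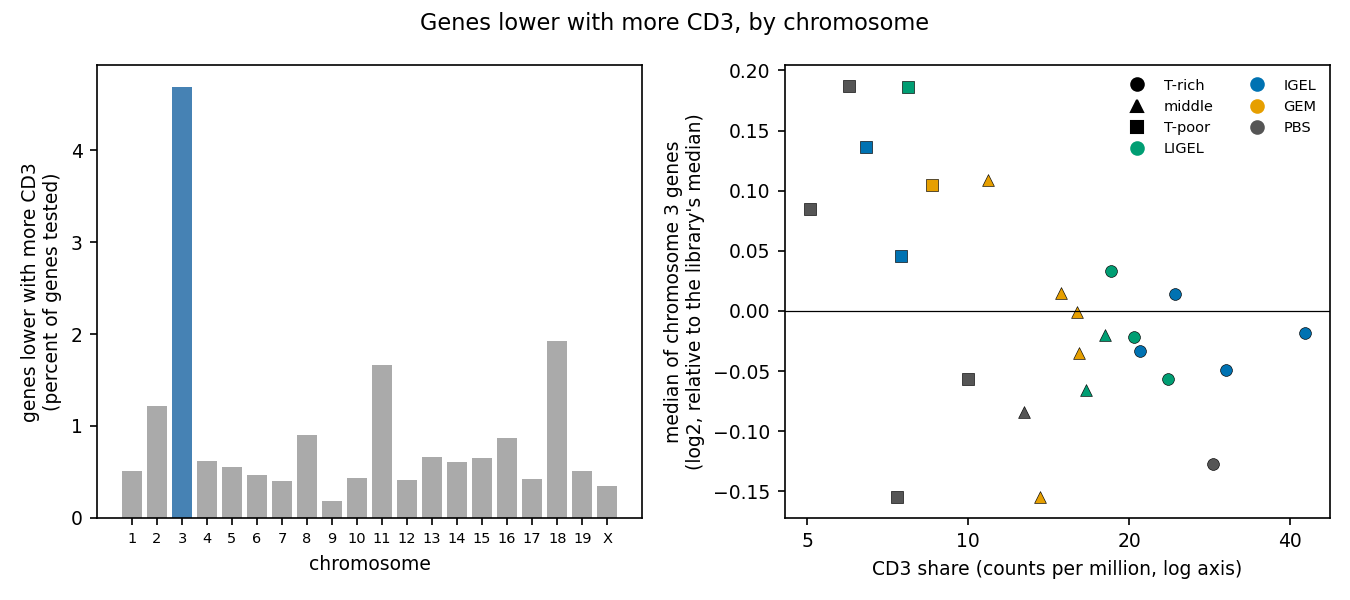
Left, genes with a called negative slope as a percentage of genes tested on each chromosome, with chromosome 3 in blue at 4.69%. Right, the median log2 level of chromosome 3 genes relative to the library's median against the CD3 share on a log axis, with class as symbol and group as colour, where 6 T-cell-poor libraries lie above every T-cell-rich one.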

How the data were processed

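The authors deposited 1 table of raw read counts per gene, which per the submitters' processing notes came from HISAT2 and featureCounts of Subread on mm10; whether counting used strand and which annotation it used is not given in the sources used here, and reads of overlapping antisense genes may be shared. Low genes were removed by edgeR 4.0.16 (R 4.3.3, filterByExpr with the 4 treatment groups, at least 10 counts and 15 in total), libraries were scaled with TMM factors of all 24, and the 4 CD3 genes were removed, leaving 19249. Class and slope were tested with edgeR's quasi-likelihood F test with treatment group as a term. Each SE is derived from that test, as the absolute log2 fold change or slope divided by the square root of its F statistic. Benjamini-Hochberg adjustment ran over all 19249 genes, and a gene was called at an adjusted p under 0.05. The code was tested on simulated data. None of the 60 pairs of libraries within a group agreed within sampling noise.

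Named genes were up to 12 per direction with the largest fold among called genes (absolute log2 fold change at least 1, at least 1 CPM, 7 of 8 libraries of a class beyond the other class's median), outside the T cell list and without predicted genes, pseudogenes and receptor segments. For each of 34 lists the 4 genes of lowest p were added, and a fixed set. Other members of the 41 are named for their role. Members and lists were chosen with earlier results of these data known.

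Alternatives were DESeq2 1.42.0, limma 3.58.1 voom with quality weights, other scalings, filters, class borders and covariates, a replicate block and leaving out libraries. All settings of the slope, and leaving out PBS replicates 1 and 5 together, were added after seeing the data. Depth was 27.1 to 40.5 M counts.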

Additional observations from a re-analysis of the deposited data

Results flagged for a closer look

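Among 172 sets of 8 libraries examined, 5 held 1 library far from the other 7; chance marks about 1 set in 20. In the T-cell-rich class this was PBS replicate 1 for 3 genes, highest for Doc2b (2.57 log2 CPM, next 0.592) and Postn (8.66, next 6.68) and lowest for Gzmb (2.61, next 3.81). In the T-cell-poor class PBS replicate 5 had the highest acinar share, 51.7% of counts with the next library at 1.76%, and PBS replicate 6 the lowest Pdcd1 level, -1.36 log2 CPM with the next at 0.175.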

How the results depend on the processing

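For the 8 against 8 contrast, 41 genes were higher and 0 lower in edgeR. The counts of higher and lower genes were 450 and 38 with DESeq2, 2166 and 468 with voom, 91 and 1 without the treatment group term, 1087 and 342 with the CD3 share of the total without acinar genes, and 105 and 1 with a term for the A1 to A3 libraries. With 0 lower throughout, 26 were higher with RLE scaling, 71 without a composition factor, 121 with 3 classes over 24 libraries, 14 for 6 against 6 libraries, 2 for 12 against 12, 10 with the acinar share as covariate and 7 without PBS replicates 1 and 5. The count was 0 for 2 against 2 libraries within each group, without the A1 to A3 libraries, without libraries over 5% acinar, and with the B cell share as covariate. It was 35 without an expression filter and 38 with a fold change minimum. Leaving out 1 library gave 0 to 383 higher and 0 to 32 lower: 0 without PBS replicate 1, 6, 7, 13, 15, 16 and 27 without IGEL replicates 6, 1, 5, 4, 2 and 3, 13, 17 and 24 without LIGEL replicates 2, 1 and 5, 22 without PBS replicate 6, 125 without LIGEL replicate 6 and 383 without PBS replicate 5.

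Slope counts were 1241 higher and 176 lower. They were 375 and 6 without the A1 to A3 libraries, 1190 and 116 with a term for them, 599 and 41 with the acinar covariate, 571 and 91 without libraries over 5% acinar, and 2867 and 1186 with the CD3 share of the non-acinar total. Leaving out 1 library gave 422 (PBS replicate 1) to 3154 (PBS replicate 5) higher and 23 to 1836 lower. Further counts that moved were 515 higher and 24 lower without IGEL replicate 1, and 103, 91, 90, 81 and 109 lower without PBS replicates 3 and 6, GEM replicate 1 and IGEL replicates 2 and 5. Gzmb changed sign: its log2 fold change was -0.38 with the replicate block and ran from -0.22 (without LIGEL replicate 6) to 0.42 (without PBS replicate 1) when 1 library was left out, and its slope was 0.00 with the block and without LIGEL replicate 6. The causes were not tested.

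With the replicate number as a block, 0 genes were called between the classes and the slope called 858 higher and 36 lower. Same-numbered libraries correlated between -0.59 and 0.71, and 6 of 24 correlated best with their own number. The labels do not say what a number marks, so the libraries were not treated as pairs.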
